A study of Mus musculus with 36 samples.

Results

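Imprinted fetal growth genes were described here through 10 genes: Igf2, Igf2r, H19, Meg3, Cdkn1c, Grb10, Plagl1, Peg3, Dlk1 and Mest. They were named by symbol and matched to Ensembl identifiers, which found all 10 among the 52636 genes listed for each library. The genes were chosen by earlier differences in read counts between these genotypes as well as by what they are, with no measured threshold, so counts, fold changes and adjusted p-values of the members are a description, to be read beside the share of all genes that passed the same test. All 10 were tested in each of the 3 sets of samples.

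Imprinted genes are transcribed mainly from the copy inherited from one parent. Igf2, Dlk1, Peg3, Plagl1 and Mest are read from the paternal copy, H19, Igf2r, Meg3 and Cdkn1c from the maternal copy, and Grb10 from the maternal copy in most tissues outside the nervous system. Many paternally read genes favour fetal growth and many maternally read genes restrain it, and several of them are abundant before birth and fall in the first weeks of life. The counts do not separate the parental copies.

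RNA of untreated mouse intestines from embryos at E18.5 (embryonic day), and of mouse embryonic fibroblasts (MEFs), was sequenced to ask how caspase-8, its partner cFLIP and the inflammatory caspase-1 shape the tissue when necroptosis is blocked. Caspase-8 is the protease of death receptor signalling, encoded by Casp8, and its D387A allele changes a site at which the enzyme cleaves itself, while C362A removes its catalytic cysteine. Cflar encodes cFLIP, Fadd the adaptor that recruits caspase-8, Mlkl the executioner of necroptosis, Casp1 caspase-1 and Ifnar1 a chain of the type I interferon receptor. Each genotype had 3 libraries, which the labels call biological replicates.

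The D387A set of intestines held 6 genotypes: a control with Mlkl knocked out, the Casp8 D387A knock-in alone, the knock-in joined with knockouts of Cflar and Mlkl (D387A Cflar Mlkl), that genotype with Casp1 also knocked out (D387A Cflar Mlkl Casp1), and the last with a further knockout of either Ifnar1 or Fadd. The C362A set of intestines held 4 genotypes: its own Mlkl knockout control, the Casp8 C362A knock-in with Mlkl knocked out (C362A Mlkl), that genotype without Casp1 (C362A Mlkl Casp1), and the knock-in with Cflar and Mlkl knocked out (C362A Cflar Mlkl). The MEFs were Mlkl knockouts and D387A Cflar Mlkl. All groups but the D387A knock-in alone lacked Mlkl, so that group differed from its control at both Casp8 and Mlkl. Comparisons within a set share control libraries, and each set was fitted by itself for the comparisons within it. In the D387A set, sample titles carry a number that the controls and D387A Cflar Mlkl share and that differs for each other genotype. Apart from D387A Cflar Mlkl against its controls, every comparison in that set crosses these numbers. In those comparisons the genotype and whatever the number marks cannot be told apart.

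Libraries held 17943524 to 32307629 reads on genes, with a median of 24334001. Members were deeply covered: Cdkn1c in the MEFs had at least 1093 reads in a library, Plagl1 in the C362A set at least 1074, and H19 reached 558559. Levels are given as RPKM (reads on a gene for each kilobase of its exons, set to a common library size by the trimmed mean of M values, TMM, within a set). Fold changes and their standard errors (SE) are on the log2 scale, from the quasi-likelihood F-test of edgeR, with p-values adjusted (Benjamini-Hochberg) over all genes tested, and a gene was called when its adjusted p was under 0.05. Levels of different sets are set side by side with no test. Scaling by raw library totals instead of TMM would shift the median log2 fold change of all genes by up to 0.276, in C362A Cflar Mlkl against its controls.

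The targeted genes were read first, as a check of the labels. Casp1 was at 0 to 0.142 RPKM in the Casp1 knockout intestines and 28.4 to 83.01 in the others. Fadd stood at 0.204, 0.259 and 0.169 RPKM in the Fadd knockouts and at 6.53 to 12.9 elsewhere in intestine. Ifnar1 stood at 9.70, 8.503 and 8.79 RPKM in the Ifnar1 knockouts, below the 19.5 to 26.4 of the other intestines but far from 0. These 3 genes separate the libraries by their labels with no overlap. Cflar kept 4.69, 4.30 and 4.90 RPKM in D387A Cflar Mlkl against 5.80, 6.42 and 6.02 in the Mlkl controls, and 7.17, 7.10 and 7.66 against 10.9, 10.8 and 11.7 in the MEFs. It was not clearly below the controls in D387A Cflar Mlkl Casp1, at 5.38, 6.03 and 6.04 RPKM, or in its Ifnar1 and Fadd knockouts, at 6.64, 6.49 and 6.76 and 5.57, 6.54 and 7.55, and in C362A Cflar Mlkl it was at 5.64, 5.04 and 5.58 against 6.99, 6.93 and 7.27. Mlkl kept reads in its knockouts, with 2.44, 2.39 and 2.67 RPKM in the D387A set controls and 27.6, 30.2 and 31.2 in D387A Cflar Mlkl Casp1 Fadd. Such reads need not come from an intact transcript, and the Casp8 alleles are point changes, so Cflar, Mlkl and Casp8 check the labels little.

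Tissue markers were as labelled: the 6 epithelial genes, led by Epcam, summed to 2813, 2639.8 and 2517 CPM (counts at the same common library size, not divided by exon length) in the D387A set controls and to 5.17, 8.60 and 16.9 in the control MEFs, where 1 of the 6 was at 0. The 8 fibroblast and mesenchyme genes, led by Col1a1, summed to 24936, 22113 and 25169.7 CPM in the control MEFs, and by Col3a1 to 3819, 4162 and 4197 in those intestines. Some libraries stood apart from the others of their genotype: replicate 3 of D387A Cflar Mlkl Casp1 differed from the mean of the others by a root mean square (RMS) log2 difference of 0.564, where the median library differed by 0.387, followed by replicates 3 and 1 of C362A Cflar Mlkl at 0.549 and 0.489 and replicate 3 of the C362A set controls at 0.482. Replicate 3 of D387A Cflar Mlkl Casp1 also had Mlkl at 22.99 RPKM, where the others of its genotype had 3.13 and 3.72, and it was low for several members. Results that change when a library is left out are given with that library.

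In control intestines the most abundant member was H19, a maternally read long noncoding RNA that hosts a microRNA. It lay at 7223, 6908 and 6865 RPKM in the D387A set controls and 9197, 7055 and 5964 in the C362A set controls. Next were Cdkn1c, which encodes the cyclin-dependent kinase inhibitor p57, at 865, 746 and 877 RPKM in the former, and Igf2, the insulin-like growth factor 2 ligand, at 588, 566 and 545. These 3 genes lie on distal chromosome 7 and exceeded the other 7 members in every control intestine. Mest, a hydrolase of the endoplasmic reticulum, came next at 124, 124 and 120.4 RPKM, and Peg3, a zinc finger protein, was lowest at 10.1, 12.02 and 11.6. MEFs had a different order: H19 (4396, 3261 and 2911 RPKM) and Igf2 (1592, 1125 and 1033) led, Grb10 came after them with 371, 308 and 319.7, and Cdkn1c was among the lowest with 39.8, 29.8 and 26.4. Meg3, a maternally read long noncoding RNA, ranged over 12.96 to 26.4 RPKM in the D387A set and over 36.2 to 82.1 in the C362A set, with no shared values.

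The positions are those of build GRCm38 with GENCODE M21. On chromosome 7, H19 (ENSMUSG00000000031, chr7:142575529-142578143, minus strand) and Igf2 (ENSMUSG00000048583, chr7:142650766-142666816, minus strand) are separated by 72622 bases, and Cdkn1c (ENSMUSG00000037664, chr7:143458339-143461050, minus strand) lies 791522 bases from Igf2 in a neighbouring imprinted domain. Peg3 (ENSMUSG00000002265, chr7:6703892-6730431, minus strand) is at the other end of that chromosome. Dlk1 (ENSMUSG00000040856, chr12:109452823-109463336, plus strand) and Meg3 (ENSMUSG00000021268, chr12:109541001-109571726, plus strand) share a domain on chromosome 12, 77664 bases apart. Each of the other 4 lies alone: Igf2r (ENSMUSG00000023830, chr17:12682406-12769664, minus strand), Grb10 (ENSMUSG00000020176, chr11:11930508-12038683, minus strand), Plagl1 (ENSMUSG00000019817, chr10:13060504-13131694, plus strand) and Mest (ENSMUSG00000051855, chr6:30723547-30748465, plus strand).

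The D387A allele together with loss of Cflar, in intestines without Mlkl, came with large falls of the members on distal chromosome 7 (H19, Igf2 and Cdkn1c). Other genes of that region were not read as a group. Cdkn1c was 7.19-fold, H19 5.37-fold and Igf2 2.85-fold lower in D387A Cflar Mlkl than in the Mlkl controls, Igf2r and Plagl1 fell by less, and Dlk1 and Grb10 rose. That is 2 of 10 members higher, against 29.9 percent of all genes, and 5 lower, against 29.5 percent. The median member had a log2 fold change of -0.40, and the median of all genes tested was -0.0065. Groups did not overlap for 7 of the 10 members and for 68.1 percent of all genes. In bulk tissue, fewer cells of a type and less RNA per cell cannot be told apart. Marker lists differed in the same comparison, given as sums in CPM for the controls and then D387A Cflar Mlkl. Enterocyte genes had 41899, 42683 and 37496, then 3296, 1884 and 2494. Liver genes had 298, 679.7 and 244, then 19.99, 72.6 and 13.6. Proliferation genes had 577, 587 and 517, then 1094, 1247 and 1056. Smooth muscle genes had 5238, 5514 and 5692, then 7229.7, 9027 and 8270.1. The part of these lists in the results of the members was not tested.

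Igf2 was at 588, 566 and 545 RPKM in the controls and 221, 179.7 and 195 in D387A Cflar Mlkl, a log2 fold change of -1.51 (SE 0.23, edgeR adjusted p = 1.99e-05). Igf2r, the receptor that carries Igf2 to lysosomes, was at 54.4, 50.00 and 45.4 RPKM against 26.5, 26.3 and 23.2, a log2 fold change of -0.98 (SE 0.12, edgeR adjusted p = 1.62e-06). For both, the lowest control was above the highest knock-in library. H19 was at 7223, 6908 and 6865 RPKM against 1457, 1239 and 1213, a log2 fold change of -2.43 (SE 0.28, edgeR adjusted p = 8.43e-07). Cdkn1c was at 865, 746 and 877 RPKM against 138, 108 and 100.1, the largest change of a member here, -2.85 (SE 0.19, edgeR adjusted p = 1.70e-09) on the log2 scale. The replicates of each group were close together and far from the other group. Plagl1, a zinc finger transcription factor, was at 30.7, 36.4 and 36.1 RPKM against 24.7, 19.4 and 18.7, a log2 fold change of -0.72 (SE 0.14, edgeR adjusted p = 0.000365), with no overlap.

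Grb10, an adaptor that restrains insulin and IGF receptor signalling, was at 59.6, 61.2 and 61.9 RPKM in the controls and 79.3, 82.8 and 79.1 in D387A Cflar Mlkl, a log2 fold change of 0.40 (SE 0.10, edgeR adjusted p = 0.00260). Dlk1, a membrane protein related to Notch ligands, was at 33.5, 35.9 and 38.1 RPKM against 70.6, 66.2 and 58.8, a log2 fold change of 0.86 (SE 0.11, edgeR adjusted p = 3.61e-06). Neither gene's groups overlapped. Meg3, Peg3 and Mest did not pass, with log2 fold changes of -0.08, 0.13 and 0.16. Mest passed, at 0.28 on the log2 scale, when replicate 2 of D387A Cflar Mlkl was left out, and no library decided another member's call.

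**Figure D1:**
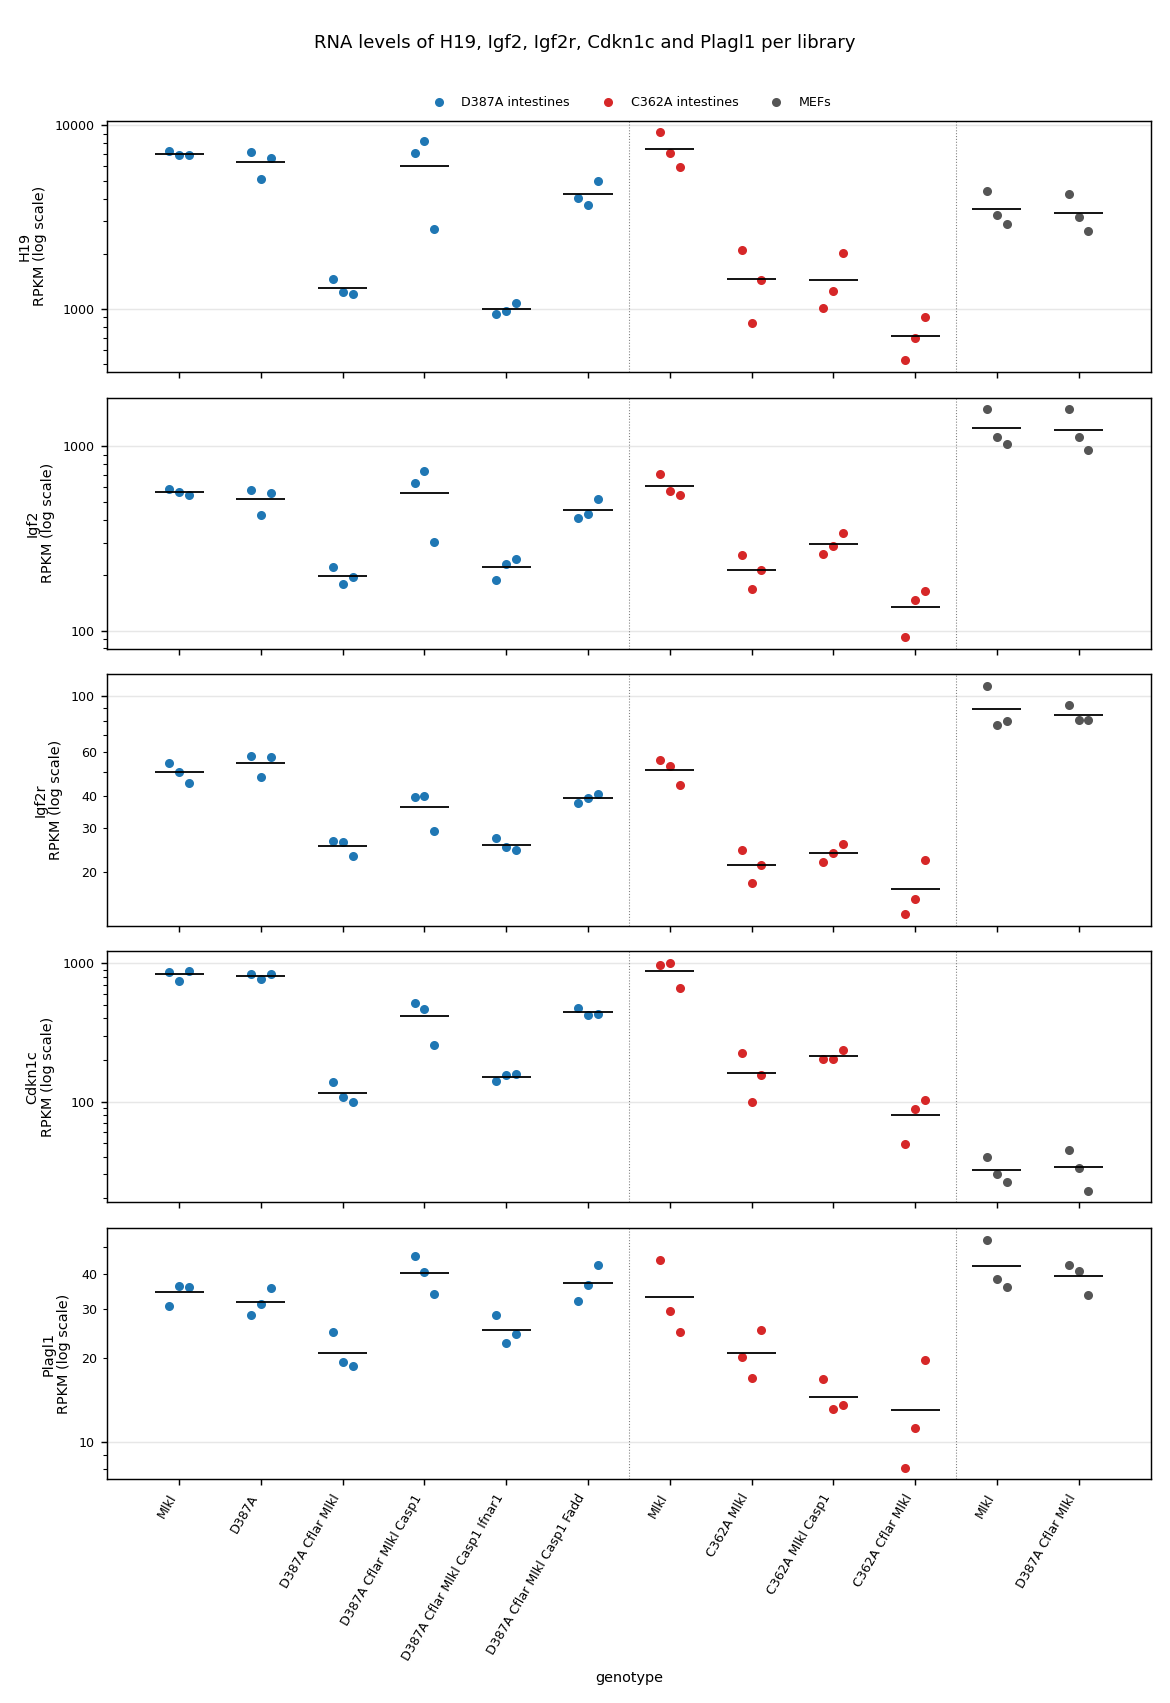
RPKM on a log scale of H19, Igf2, Igf2r, Cdkn1c and Plagl1 in each library (dots) and the mean of each genotype (lines), for D387A intestines (blue), C362A intestines (red) and MEFs (grey).

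The D387A knock-in alone asked what the cleavage-site allele does while Cflar, and here also Mlkl, is intact. edgeR called none of the 10 members, with 0 higher, against 0 percent of all genes, and 0 lower, against 0.00545 percent, and DESeq2 and limma-voom also called 0. Of all genes, 921 had an unadjusted p under 0.05. Igf2 was at 582, 421 and 555 RPKM, H19 at 7168, 5101 and 6623 and Cdkn1c at 829, 774 and 832, each overlapping the controls. Log2 fold changes of the members lay between -0.22 for Dlk1 and 0.12 for Igf2r. Over the 10 members the median log2 fold change was -0.12, and over all genes 0.018. The libraries of the 2 groups were fully apart for 3 members and for 15.6 percent of all genes.

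Removing Casp1 from D387A Cflar Mlkl asked whether caspase-1 contributes to these differences. Relative to D387A Cflar Mlkl, H19, Igf2, Cdkn1c, Plagl1, Igf2r and Meg3 were higher and Dlk1 was lower without Casp1. That is 6 of 10 members higher, against 24.5 percent of all genes, and 1 lower, against 22.5 percent. Median log2 fold changes were 0.50 for the members and 0.029 for all genes. Without overlap between groups were 6 of 10 members and 53.2 percent of all genes.

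Igf2 was at 632, 729 and 304 RPKM in D387A Cflar Mlkl Casp1, a log2 fold change of 1.48 (SE 0.23, edgeR adjusted p = 4.71e-05) over D387A Cflar Mlkl. H19 was at 7078, 8237 and 2721 RPKM, with a log2 fold change of 2.21 (SE 0.27, edgeR adjusted p = 5.21e-06). In both genes replicate 3 was the lowest of its genotype and still exceeded every D387A Cflar Mlkl library. Cdkn1c was at 516, 466 and 258 RPKM, which gives a log2 fold change of 1.84 (SE 0.19, edgeR adjusted p = 5.64e-07), again without overlap. Igf2r was at 39.7, 40.3 and 29.1 RPKM, with a log2 fold change of 0.52 (SE 0.12, edgeR adjusted p = 0.00156). Plagl1 was at 46.5, 40.6 and 33.9 RPKM, with a log2 fold change of 0.95 (SE 0.14, edgeR adjusted p = 4.49e-05). For Igf2r and Plagl1, as for Dlk1 at 40.4, 31.04 and 33.6 RPKM, the 2 genotypes did not overlap. The log2 fold change of Dlk1 was -0.90 (SE 0.11, edgeR adjusted p = 5.17e-06). Smooth muscle markers summed to 7229.7, 9027 and 8270.1 CPM with Casp1 and 4898, 4685 and 5070.2 without it (8 of 8 lower, against 22.5 percent of all genes), and fibroblast markers to 5173, 4986 and 5107 with it and 4608, 4080.1 and 3954 without it (1 higher, against 24.5 percent, and 3 lower of 8). Enterocyte markers were higher without Casp1 (7 of 8, against 24.5 percent of all genes). Erythroid markers summed to 138, 205 and 274 CPM with Casp1 and 1467, 752 and 257 without it. Proliferation markers summed to 1094, 1247 and 1056 with Casp1 and 697, 669 and 709 without it. Replicate 3 without Casp1 was the lowest of its genotype for erythroid markers, as for H19 and Igf2, and the highest for macrophage markers. The part of these lists in the results of the members was not tested. Meg3 passed at 0.48 (SE 0.17, edgeR adjusted p = 0.0292), but not when replicate 1 or 3 of D387A Cflar Mlkl or replicate 3 of D387A Cflar Mlkl Casp1 was left out (0.40, 0.42 and 0.29), nor with only these 2 genotypes in the fit (0.47). Left-out libraries added calls of Peg3 without D387A Cflar Mlkl replicate 1 (0.25), of Mest without D387A Cflar Mlkl replicate 3 (0.32) or D387A Cflar Mlkl Casp1 replicate 3 (0.33), and of Grb10 without D387A Cflar Mlkl Casp1 replicate 1 (-0.29).

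Set against the Mlkl controls, D387A Cflar Mlkl Casp1 had lower Cdkn1c and Igf2r and higher Mest, while the ranges of Igf2 and H19 overlapped those of the controls. That is 1 of 10 members higher, against 10.2 percent of all genes, and 2 lower, against 11.2 percent. The median member had a log2 fold change of 0.10, and the median of all genes tested was 0.019. Groups did not overlap for 4 of the 10 members and for 37.5 percent of all genes. Cdkn1c had a log2 fold change of -1.01 (SE 0.18, edgeR adjusted p = 0.00115), Igf2r of -0.46 (SE 0.12, edgeR adjusted p = 0.0105), and Mest, at 183, 162 and 145 RPKM against 124, 124 and 120.4, of 0.41 (SE 0.11, edgeR adjusted p = 0.0108). Igf2 and H19 had log2 fold changes of -0.03 (SE 0.22, edgeR adjusted p = 0.947) and -0.22 (SE 0.26, edgeR adjusted p = 0.602). With single libraries left out these ran over -0.28 to 0.26 for Igf2 and -0.52 to 0.13 for H19. The direction of both therefore turned with a library, and neither passed. Igf2, at 632, 729 and 304 RPKM, had libraries above and below the controls (588, 566 and 545) and none within their range. The Igf2r call was lost without control replicate 1 (-0.40) or with only these 2 genotypes in the fit (-0.46), and the Mest call without D387A Cflar Mlkl Casp1 replicate 1 (0.32). Meg3 gained a call without that library (0.53), and Grb10 without replicate 3 of the same genotype (0.36).

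A further knockout of Ifnar1 asked what type I interferon signalling does in D387A Cflar Mlkl Casp1. The members on distal chromosome 7 (H19, Igf2 and Cdkn1c) were again low. Relative to the same genotype with Ifnar1, H19, Cdkn1c, Igf2, Plagl1, Mest, Grb10 and Igf2r were lower and no member was higher. That is 0 of 10 members higher, against 15.5 percent of all genes, and 7 lower, against 15.1 percent. Over the 10 members the median log2 fold change was -0.60, and over all genes -4.4e-04. The libraries of the 2 groups were fully apart for 7 members and for 35.7 percent of all genes. H19 was at 940.1, 975 and 1081 RPKM, which gives a log2 fold change of -2.59 (SE 0.28, edgeR adjusted p = 6.94e-05) for the loss of Ifnar1. Igf2 was at 189, 230.4 and 244 RPKM, with a log2 fold change of -1.33 (SE 0.23, edgeR adjusted p = 0.000812). Cdkn1c was at 141, 155 and 159 RPKM, with a log2 fold change of -1.45 (SE 0.19, edgeR adjusted p = 0.000200). All 3 genes lay below every D387A Cflar Mlkl Casp1 library, its low replicate 3 included. Plagl1 (28.6, 22.6 and 24.4 RPKM) had a log2 fold change of -0.68 (SE 0.14, edgeR adjusted p = 0.00272), and Mest (100.1, 101 and 113 RPKM) of -0.65 (SE 0.11, edgeR adjusted p = 0.000662). Grb10 had -0.55 (SE 0.10, edgeR adjusted p = 0.00126) and Igf2r -0.50 (SE 0.12, edgeR adjusted p = 0.00505) on the log2 scale, and both missed the threshold with only these 2 genotypes in the fit (-0.55 and -0.50). Meg3 gained a call without replicate 1 of D387A Cflar Mlkl Casp1 (-0.58) or replicate 1 of D387A Cflar Mlkl Casp1 Ifnar1 (-0.55). Several marker lists differed in the same comparison, to be read against 15.5 percent of all genes higher and 15.1 percent lower. Lower were 3 of 8 fibroblast, 3 of 6 endothelial, 6 of 8 neuron and glia, 5 of 5 erythroid, 2 of 3 Cajal cell and 3 of 6 liver genes, and the sums of these 6 lists did not overlap. Higher were 5 of 6 general epithelial and 4 of 4 acinar genes tested, and for enterocyte genes there were 2 higher and 2 lower of 8. The part of these lists in the results of the members was not tested.

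Against the Mlkl controls, D387A Cflar Mlkl Casp1 Ifnar1 had 0 of 10 members higher, against 24.7 percent of all genes, and 6 lower, against 23.6 percent. Median log2 fold changes were -0.39 for the members and -0.0029 for all genes. Without overlap between groups were 8 of 10 members and 56.9 percent of all genes. H19 had a log2 fold change of -2.81 (SE 0.28, edgeR adjusted p = 1.00e-06), Cdkn1c of -2.45 (SE 0.19, edgeR adjusted p = 1.16e-07), Igf2 of -1.36 (SE 0.23, edgeR adjusted p = 0.000119) and Igf2r of -0.96 (SE 0.12, edgeR adjusted p = 6.81e-06), with no overlap of the groups. Grb10 had -0.32 (SE 0.10, edgeR adjusted p = 0.0143) and lost its call without D387A Cflar Mlkl Casp1 Ifnar1 replicate 2 (-0.28). Plagl1 had -0.45 (SE 0.14, edgeR adjusted p = 0.0157) and lost its call without control replicate 2 or 3 (-0.42 and -0.42) or D387A Cflar Mlkl Casp1 Ifnar1 replicate 2 (-0.38). Dlk1, at 32.3, 29.4 and 33.1 RPKM, lay just below the controls, with a log2 fold change of -0.18 (SE 0.11, edgeR adjusted p = 0.188). Marker sums in CPM are given for the controls and then this knockout. Liver genes had 298, 679.7 and 244, then 51.7, 57.95 and 54.4. Neuron and glia genes had 249, 244 and 265, then 178, 171 and 176. Fibroblast genes had 3819, 4162 and 4197, then 3362, 3321 and 3205. General epithelial genes had 2813, 2639.8 and 2517, then 3679, 3773 and 3995. Macrophage genes had 404, 396 and 369.5, then 492, 519.7 and 563. Their part was not tested.

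Knocking out Fadd in D387A Cflar Mlkl Casp1 asked what the adaptor of caspase-8 does in the same setting. Against the Mlkl controls, Cdkn1c alone was called lower. That is 0 of 10 members higher, against 9.97 percent of all genes, and 1 lower, against 8.40 percent. The median member had a log2 fold change of -0.10, and the median of all genes tested was -0.025. Groups did not overlap for 5 of the 10 members and for 38.01 percent of all genes. Cdkn1c was at 473, 422 and 427 RPKM, which gives a log2 fold change of -0.91 (SE 0.18, edgeR adjusted p = 0.00216), and lay below every control. H19, at 4009.7, 3684 and 4994 RPKM, had -0.73 (SE 0.26, edgeR adjusted p = 0.0661), Igf2, at 409.5, 427 and 514 RPKM, -0.33 (SE 0.22, edgeR adjusted p = 0.340), and Igf2r, at 37.8, 39.6 and 41.1 RPKM, -0.34 (SE 0.12, edgeR adjusted p = 0.0539). These 3 genes did not pass, although each lay below every control in all 3 libraries. Igf2r gained a call without control replicate 3 (-0.40). With only these 2 genotypes in the fit H19 (-0.70), Igf2 (-0.31) and Igf2r (-0.32) passed as lower. H19 also passed with DESeq2 (-0.71) and with no filter (-0.72), and Igf2r with DESeq2 (-0.32) and with a mean of at least 50 reads (-0.34).

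Relative to D387A Cflar Mlkl Casp1, the loss of Fadd went with 0 of 10 members higher, against 10.5 percent of all genes, and 3 lower, against 7.35 percent. Over the 10 members the median log2 fold change was -0.30, and over all genes -0.034. The libraries of the 2 groups were fully apart for 2 members and for 29.6 percent of all genes. Mest (129, 119 and 116 RPKM) had a log2 fold change of -0.43 (SE 0.11, edgeR adjusted p = 0.00966), Grb10 (55.6, 57.4 and 55.1 RPKM) of -0.35 (SE 0.10, edgeR adjusted p = 0.0251) and Peg3 (10.5, 10.7 and 11.6 RPKM) of -0.30 (SE 0.099, edgeR adjusted p = 0.0468). Each of these calls was lost in at least 1 refit. Grb10 lost its call without D387A Cflar Mlkl Casp1 replicate 1 or 2 (-0.23 and -0.32) and without D387A Cflar Mlkl Casp1 Fadd replicate 1, 2 or 3 (-0.35, -0.36 and -0.34). Peg3 lost its call without the same libraries (-0.23, -0.31, -0.27, -0.28 and -0.34), Mest lost its call without D387A Cflar Mlkl Casp1 replicate 1 (-0.34), and with only these 2 genotypes in the fit all 3 were lost (-0.34 for Grb10, -0.29 for Peg3 and -0.42 for Mest). Peg3 was also lost with no filter (-0.29) and with relative log expression size factors (-0.28). Without D387A Cflar Mlkl Casp1 replicate 3, where H19 and Igf2 are low, both passed as lower in the Fadd knockouts (-0.86 and -0.60), and Meg3 passed without D387A Cflar Mlkl Casp1 replicate 1 (-0.57) or D387A Cflar Mlkl Casp1 Fadd replicate 3 (-0.62).

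In the C362A set, the catalytically inactive caspase-8 without Mlkl asked whether the enzyme's activity bears on the same genes. C362A Mlkl intestines had less Cdkn1c (5.51-fold), H19 (5.10-fold), Igf2 (2.85-fold) and Igf2r (2.39-fold) than the Mlkl controls of that set, and no member was called higher. That is 0 of 10 members higher, against 22.4 percent of all genes, and 4 lower, against 19.7 percent. Median log2 fold changes were -0.55 for the members and 0.018 for all genes. Without overlap between groups were 5 of 10 members and 53.6 percent of all genes. Igf2 was at 709.6, 569 and 542 RPKM in the controls and 258, 168 and 214 in C362A Mlkl, a log2 fold change of -1.51 (SE 0.24, edgeR adjusted p = 0.000151). Igf2r was at 55.96, 52.6 and 44.3 RPKM against 24.6, 18.1 and 21.4, a log2 fold change of -1.26 (SE 0.18, edgeR adjusted p = 5.32e-05). H19 was at 9197, 7055 and 5964 RPKM against 2085, 843 and 1432, a log2 fold change of -2.35 (SE 0.37, edgeR adjusted p = 0.000148). The groups of these 3 genes did not overlap, and the controls spread more than those of the D387A set. Reads on genes made up 83.9, 82.2 and 78.2 percent of the library totals used by the authors in these controls. In C362A Mlkl they made up 81.4, 75.6 and 79.1 percent. Within both genotypes H19 and Igf2 had the same order of libraries, and the part of this share in their results was not tested. Cdkn1c was at 975, 1006 and 658 RPKM against 225, 99.7 and 155, a log2 fold change of -2.46 (SE 0.31, edgeR adjusted p = 1.67e-05). Without control replicate 3, the lowest control for Grb10 and Plagl1 and the highest for Meg3, Meg3 (0.75), Grb10 (-0.59) and Plagl1 (-0.84) also passed. Marker sums in CPM are given for the controls and then C362A Mlkl. Enterocyte genes had 32721, 44749 and 51025, then 16865, 14698 and 18476. Liver genes had 264, 304 and 375, then 217, 137 and 200.1. Macrophage genes had 342, 395 and 409, then 545, 498 and 558. Proliferation genes had 567, 443 and 374, then 664, 646 and 661. The part of these lists in the results of the members was not tested.

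C362A Cflar Mlkl, which lacks cFLIP as well, had the lowest mean levels in its set of the members on distal chromosome 7 (H19, Igf2 and Cdkn1c). Against the controls that is 0 of 10 members higher, against 27.9 percent of all genes, and 5 lower, against 24.9 percent. The median member had a log2 fold change of -0.71, and the median of all genes tested was 0.029. Groups did not overlap for 5 of the 10 members and for 54.97 percent of all genes. Igf2 was at 91.9, 147 and 164 RPKM, which gives a log2 fold change of -2.18 (SE 0.25, edgeR adjusted p = 4.35e-06). H19 was at 526, 699 and 907 RPKM, which gives a log2 fold change of -3.38 (SE 0.39, edgeR adjusted p = 5.32e-06). Cdkn1c was at 49.3, 88.1 and 103 RPKM, which gives a log2 fold change of -3.46 (SE 0.32, edgeR adjusted p = 6.68e-07). Every value of the 3 genes lay far below the lowest control. Igf2r (13.6, 15.7 and 22.3 RPKM) had -1.57 (SE 0.18, edgeR adjusted p = 5.02e-06) and Plagl1 (8.06, 11.2 and 19.8 RPKM) -1.34 (SE 0.28, edgeR adjusted p = 0.00114) on the log2 scale. Dlk1 and Grb10 did not pass, with log2 fold changes of 0.22 and -0.07. Meg3 gained a call without control replicate 3 (0.73). Enterocyte markers summed to 32721, 44749 and 51025 CPM in the controls and 2797, 3393 and 7855 in C362A Cflar Mlkl. Proliferation markers summed to 567, 443 and 374 against 774, 779 and 922, and smooth muscle markers to 4342, 3778 and 2664 against 6204, 7253 and 6200.1. Reads on genes made up 76.63, 76.65 and 79.9 percent of library totals in this genotype, in the order of its H19 and Igf2. The part of these in the results was not tested.

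Set against C362A Mlkl, the further loss of Cflar gave a number of calls that depended on the filter and the method. With the filter used here that is 0 of 10 members higher, against 6.95 percent of all genes, and 1 lower, against 12.4 percent. Over the 10 members the median log2 fold change was -0.19, and over all genes -0.021. The libraries of the 2 groups were fully apart for 1 member and for 32.3 percent of all genes. The call was that of Cdkn1c, with a log2 fold change of -0.995 (SE 0.30, edgeR adjusted p = 0.0302), although its groups overlapped. The call was lost without C362A Mlkl replicate 1 or 3 (-0.67 and -1.02), without C362A Cflar Mlkl replicate 1 or 2 (-0.74 and -1.07), and with only these 2 genotypes in the fit (-0.94). H19, at -1.03, and Igf2, at -0.67 on the log2 scale, passed without C362A Mlkl replicate 2 (-1.31 and -0.82) or C362A Cflar Mlkl replicate 3 (-1.25 and -0.84). Igf2r (-0.55) and Plagl1 (-1.11) passed without the latter library as well. H19 and Igf2 also passed with no filter (-1.005 and -0.64), with a mean of at least 50 reads (-1.02 and -0.66), with DESeq2 (-1.02 and -0.66) and with limma-voom (-0.98 and -0.69), and with no filter so did Dlk1 (0.58) and Plagl1 (-0.65).

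Loss of Casp1 in C362A Mlkl gave the comparison closest to the Casp1 knockout of the D387A set. Relative to C362A Mlkl, Meg3 and Peg3 were lower, which is 0 of 10 members higher, against 17.9 percent of all genes, and 2 lower, against 15.5 percent. Median log2 fold changes were -0.26 for the members and -0.021 for all genes. Without overlap between groups were 5 of 10 members and 53.5 percent of all genes. Igf2 was at 261, 287 and 337 RPKM, with a log2 fold change of 0.47 (SE 0.24, edgeR adjusted p = 0.142) over C362A Mlkl. H19 was at 1018, 1258 and 2028 RPKM, with -0.02 (SE 0.35, edgeR adjusted p = 0.974), and Cdkn1c at 203, 204 and 236 RPKM, with 0.42 (SE 0.29, edgeR adjusted p = 0.288). H19 and Cdkn1c overlapped between the genotypes, and all 3 genes stayed below the controls of the set. Meg3 was at 58.2, 82.1 and 55.1 RPKM in C362A Mlkl and 36.2, 40.8 and 39.7 without Casp1, a log2 fold change of -0.74 (SE 0.23, edgeR adjusted p = 0.0212), and lost its call without C362A Mlkl replicate 2 (-0.54) or C362A Mlkl Casp1 replicate 1, 2 or 3 (-0.70, -0.79 and -0.77). Peg3 was at 11.2, 13.3 and 13.2 RPKM against 8.99, 9.03 and 9.43, a log2 fold change of -0.46 (SE 0.12, edgeR adjusted p = 0.00885), without overlap. Lower in this comparison were also 3 of 3 Cajal cell, 3 of 8 fibroblast and 5 of 6 macrophage markers, against 15.5 percent of all genes, and 6 of 8 enterocyte markers were higher, against 17.9 percent. The macrophage sum did not fall, at 545, 498 and 558 CPM in C362A Mlkl and 519, 565 and 535 without Casp1. Reads on genes made up 80.1, 81.4 and 82.5 percent of the library totals in C362A Mlkl Casp1, in the order of its H19 and Igf2. The part of the markers and of this share in these results was not tested.

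Against the Mlkl controls of the set, C362A Mlkl Casp1 had 0 of 10 members higher, against 18.98 percent of all genes, and 8 lower, against 17.1 percent. The median member had a log2 fold change of -0.93, and the median of all genes tested was -0.0014. Groups did not overlap for 8 of the 10 members and for 51.05 percent of all genes. H19 had a log2 fold change of -2.37 (SE 0.37, edgeR adjusted p = 0.000276), Cdkn1c of -2.04 (SE 0.30, edgeR adjusted p = 0.000175), Igf2r of -1.09 (SE 0.18, edgeR adjusted p = 0.000345) and Igf2 of -1.04 (SE 0.24, edgeR adjusted p = 0.00398). Plagl1 (16.8, 13.2 and 13.6 RPKM against 44.9, 29.5 and 24.8) had -1.19 (SE 0.28, edgeR adjusted p = 0.00524) and Grb10 (26.1, 31.1 and 35.5 against 69.7, 51.3 and 42.9) -0.82 (SE 0.19, edgeR adjusted p = 0.00463). Peg3 had -0.41 (SE 0.12, edgeR adjusted p = 0.0160) and lost its call without control replicate 1 (-0.34). Dlk1 (13.6, 21.5 and 25.3 RPKM against 45.1, 29.6 and 26.1) had -0.74 (SE 0.27, edgeR adjusted p = 0.0451) and lost its call without control replicate 1 or 2 (-0.50 and -0.84) or C362A Mlkl Casp1 replicate 1 or 2 (-0.54 and -0.81). Markers of neurons and glia summed to 228, 193 and 159.8 CPM in the controls and 97.8, 117 and 138 in C362A Mlkl Casp1 (7 of 8 lower, against 17.1 percent of all genes), and those of Cajal cells to 78.5, 72.5 and 71.8 in the controls and 46.3, 55.9 and 58.2 in that genotype (2 of 3), without overlap. Of fibroblast and smooth muscle markers, 3 and 3 of 8 were lower, with sums that overlapped but had lower means. Their part in the results of the members was not tested.

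**Figure D2:**
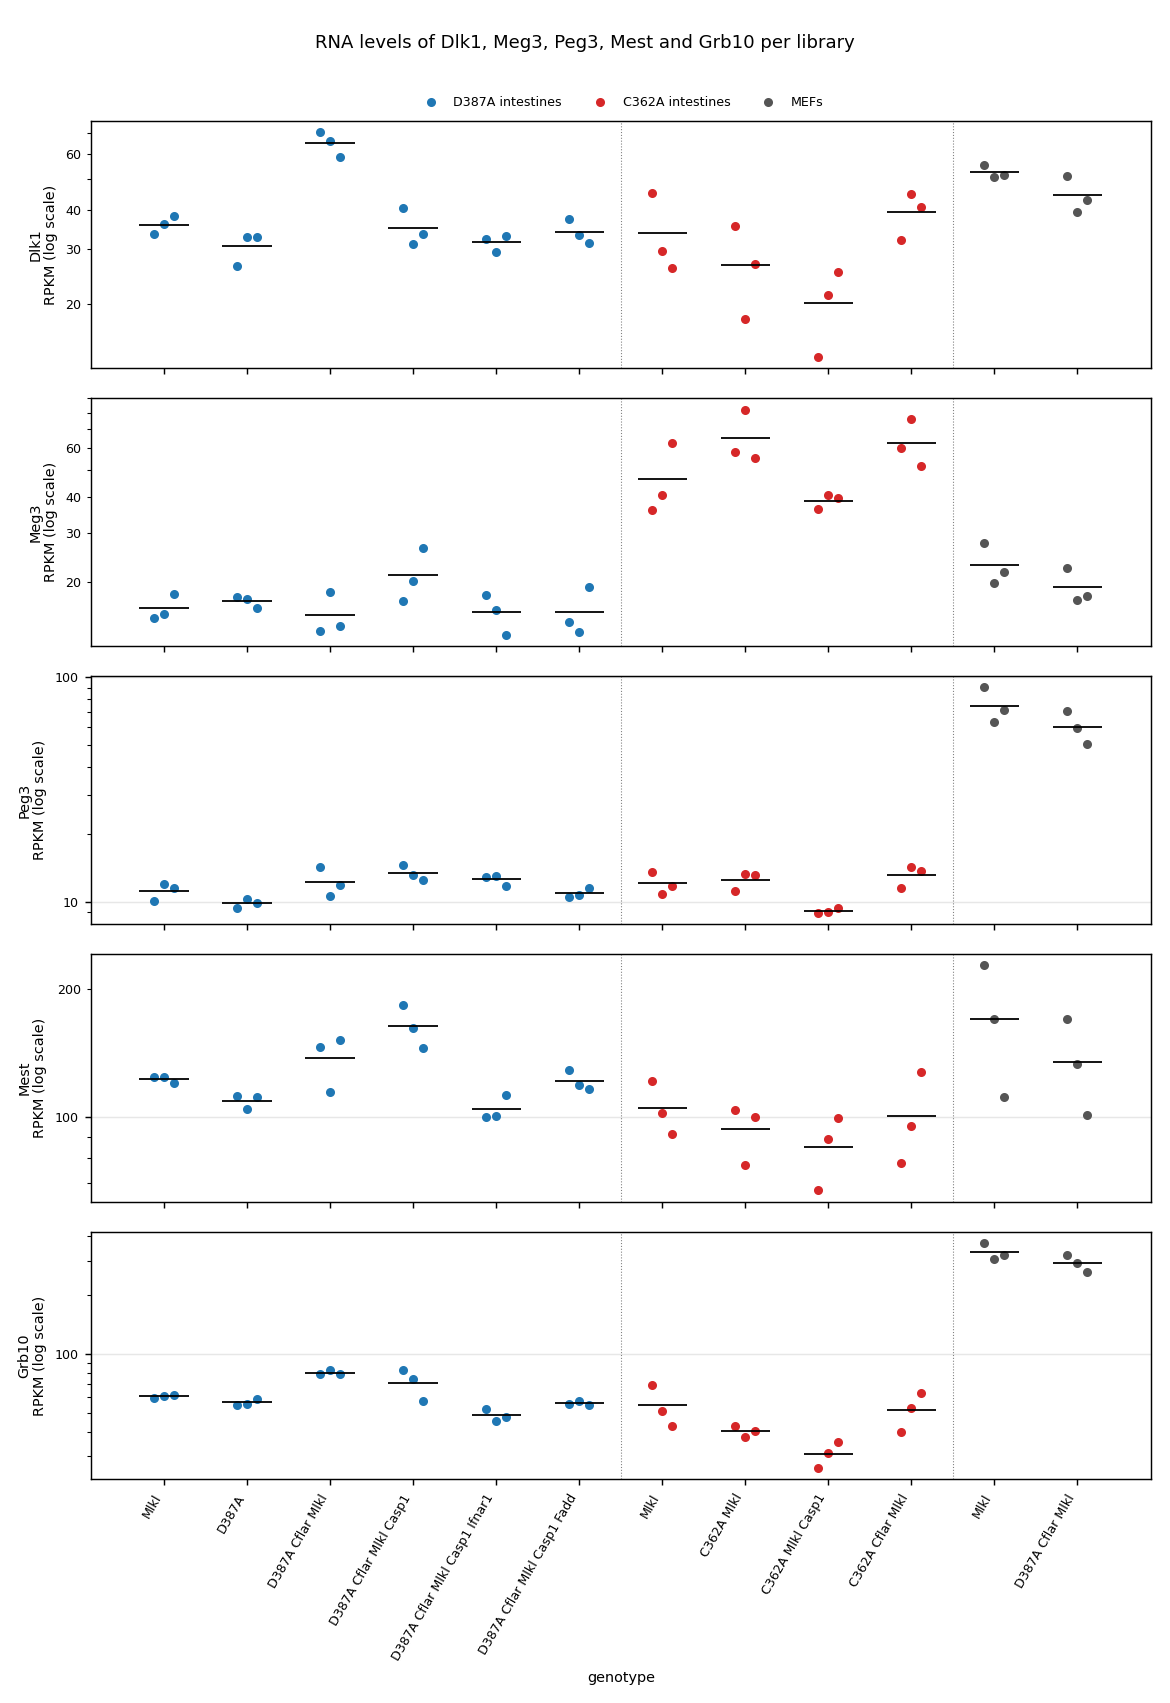
RPKM on a log scale of Dlk1, Meg3, Peg3, Mest and Grb10 in each library (dots) and the mean of each genotype (lines), coloured by set as in the levels of H19 and Igf2.

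MEFs of the D387A Cflar Mlkl genotype asked whether the same alleles change these genes in cultured fibroblasts. No member was called: edgeR found 0 higher, against 0.0970 percent of all genes, and 0 lower, against 0.0129 percent. DESeq2, limma-voom and a fit with the replicate number as a block also called 0, and 1001 of all genes had an unadjusted p under 0.05. H19 was at 4396, 3261 and 2911 RPKM in Mlkl knockout MEFs and 4221, 3156 and 2654 in D387A Cflar Mlkl MEFs. Igf2 was at 1592, 1125 and 1033 RPKM against 1591, 1119 and 952, and Cdkn1c at 39.8, 29.8 and 26.4 against 44.8, 33.02 and 22.6. The groups overlapped for each of these. Within the 3 pairs of libraries of the same number, 7 members (H19, Igf2, Meg3, Grb10, Peg3, Dlk1 and Mest) were lower in D387A Cflar Mlkl in every pair, against 15.8 percent of all genes, and 0 were higher in every pair, against 16.7 percent. The sample titles give a number and state no pairing. Any difference counted, such as 1592 against 1591 RPKM for Igf2, so these counts do not show a fall in MEFs. Log2 fold changes ran from -0.33 for Mest to 0.06 for Cdkn1c. Over the 10 members the median log2 fold change was -0.15, and over all genes -0.0016. The libraries of the 2 groups were fully apart for 0 members and for 12.5 percent of all genes.

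Differences between the effects themselves were tested by interaction contrasts, each effect taken relative to the controls of its own set. Between D387A Cflar Mlkl in intestine and in MEFs, 8 of 10 members differed, against 38.4 percent of all genes. The log2 effect in intestine minus that in MEFs was -2.88 (SE 0.31, edgeR adjusted p = 2.83e-07) for Cdkn1c, -2.32 (SE 0.37, edgeR adjusted p = 3.72e-05) for H19, -1.45 (SE 0.33, edgeR adjusted p = 0.00148) for Igf2 and -0.87 (SE 0.18, edgeR adjusted p = 0.000577) for Igf2r. It was positive for Dlk1, at 1.13 (SE 0.16, edgeR adjusted p = 9.19e-06), and for Grb10, at 0.61 (SE 0.15, edgeR adjusted p = 0.00203). Plagl1 had -0.57 (SE 0.22, edgeR adjusted p = 0.0488) and Peg3 0.47 (SE 0.18, edgeR adjusted p = 0.0442), both close to the threshold. Plagl1 lost its call without MEF D387A Cflar Mlkl replicate 1 or 2 (-0.50 and -0.55), control MEF replicate 2 or 3 (-0.51 and -0.48), and in intestine without D387A Cflar Mlkl replicate 2 or 3 (-0.52 and -0.49) or control replicate 2 or 3 (-0.53 and -0.56). Peg3 lost its call without MEF D387A Cflar Mlkl replicate 2 or 3 (0.46 and 0.35), control MEF replicate 1 or 3 (0.32 and 0.49), and in intestine without D387A Cflar Mlkl replicate 1 or 3 (0.34 and 0.50) or control replicate 1 or 3 (0.40 and 0.47). Peg3 was also lost with a mean of at least 50 reads required (0.46) and with relative log expression size factors (0.43). Mest passed without control MEF replicate 3 (0.73) or MEF D387A Cflar Mlkl replicate 1 (0.72). With the MEF pairs as a block, an alternative added after values were seen, all 8 kept their calls, with Plagl1 at -0.59 and Peg3 at 0.47, and Mest (0.49) was gained.

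Between D387A Cflar Mlkl and C362A Mlkl, 2 of 10 members differed in their effects, against 18.1 percent of all genes. The effect on Dlk1 was higher in D387A Cflar Mlkl by 1.19 (SE 0.29, edgeR adjusted p = 0.00481) on the log2 scale, and that on Grb10 by 0.83 (SE 0.21, edgeR adjusted p = 0.00652). H19 had a difference of -0.07 (SE 0.44, edgeR adjusted p = 0.937) and Cdkn1c of -0.38 (SE 0.35, edgeR adjusted p = 0.499). Meg3 passed without C362A set control replicate 3 (-0.86). Between D387A Cflar Mlkl and C362A Cflar Mlkl, which differ in the Casp8 allele and come from separate lines with Cflar deletions of their own, edgeR called 0 of 10 members, against 0.127 percent of all genes, as did each of the alternative filters and size factors that were run. Without adjustment, 4 of 10 members and 4043 of the 19643 genes tested had a p under 0.05 in that contrast. Dlk1 had 0.63 (SE 0.29, edgeR adjusted p = 0.218) and H19 0.95 (SE 0.44, edgeR adjusted p = 0.228), neither of which passed. Without C362A Cflar Mlkl replicate 3, Igf2r (0.81), Grb10 (0.63) and Plagl1 (1.05) passed.

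The difference between the effects of Casp1 loss in the 2 intestine sets was tested as a contrast added after values were seen, and the backgrounds also differ in Cflar. It was called for 6 of 10 members, against 16.9 percent of all genes. The effect in the D387A set exceeded that in the C362A set by 2.25 (SE 0.45, edgeR adjusted p = 0.00168) for H19, 1.49 (SE 0.32, edgeR adjusted p = 0.00310) for Plagl1 and 1.44 (SE 0.35, edgeR adjusted p = 0.00722) for Cdkn1c, on the log2 scale. For Meg3, called in opposite directions by the 2 comparisons, the difference was 1.25 (SE 0.29, edgeR adjusted p = 0.00557), and for Peg3 0.61 (SE 0.15, edgeR adjusted p = 0.00796). Igf2 had 1.04 (SE 0.33, edgeR adjusted p = 0.0322) and lost its call without D387A Cflar Mlkl replicate 2 or 3 (0.97 and 1.02), D387A Cflar Mlkl Casp1 replicate 1 or 2 (0.93 and 0.79), C362A Mlkl replicate 1 or 3 (0.89 and 1.03), or C362A Mlkl Casp1 replicate 1 or 2 (0.96 and 1.02). Igf2r (0.38), Grb10 (0.24), Dlk1 (-0.47) and Mest (0.41) did not pass.

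The order of the genotypes by mean level (mean ± SD, n = 3) shows which of them their spread separates. In the D387A set, H19 ran from the Mlkl controls (6999 ± 195 RPKM) through D387A alone (6298 ± 1071), D387A Cflar Mlkl Casp1 (6012 ± 2909) and its Fadd knockout (4229 ± 682), whose neighbours overlap, to D387A Cflar Mlkl (1303 ± 134) and the Ifnar1 knockout (999 ± 73.6), each apart from its neighbours. Igf2 ran from the controls (567 ± 21.3 RPKM), D387A Cflar Mlkl Casp1 (555 ± 223), D387A alone (519 ± 86.3) and the Fadd knockout (450.4 ± 55.9), with overlapping neighbours, to the Ifnar1 knockout (221 ± 28.8) and D387A Cflar Mlkl (199 ± 21.1), which overlap each other. Cdkn1c separated into the controls (829 ± 72.6 RPKM) with D387A alone (812 ± 32.7), then the Fadd knockout (441 ± 28.1) with D387A Cflar Mlkl Casp1 (413 ± 137), then the Ifnar1 knockout (152 ± 9.56), then D387A Cflar Mlkl (115 ± 20.3). Dlk1 was set apart in D387A Cflar Mlkl (65.2 ± 5.92 RPKM), and neighbours among the other 5 genotypes overlapped. In the C362A set, Igf2 ran from the controls (607 ± 90.02 RPKM) to C362A Mlkl Casp1 (295 ± 38.3), C362A Mlkl (213 ± 44.96) and C362A Cflar Mlkl (134 ± 37.6) with no overlap between neighbours. H19 separated the controls (7405 ± 1645 RPKM) from C362A Mlkl (1453 ± 621) and C362A Mlkl Casp1 (1435 ± 528), which overlap. C362A Cflar Mlkl had the lowest mean (710.4 ± 191), with libraries of up to 907 RPKM that overlap those of C362A Mlkl, from 843 RPKM.

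The wider insulin-like growth factor (IGF) pathway was read from 29 genes, 3 of which (Igf2, Igf2r and Grb10) are members. In D387A Cflar Mlkl against the Mlkl controls, 15 of 29 were higher, against 29.9 percent of all genes, and 9 lower, against 29.5 percent, with a median log2 fold change of 0.27 against -0.0065 for all genes. Among ligands Igf1 was higher, at 4.17, 5.08 and 4.77 RPKM in the controls and 7.39, 6.99 and 7.87 in D387A Cflar Mlkl, a log2 fold change of 0.67 (SE 0.086, edgeR adjusted p = 3.59e-06). So the 2 growth factors of the family moved in opposite directions, with no overlap of the groups for either. Of the receptors, Igf1r, through which both ligands signal, had 0.42 (SE 0.096, edgeR adjusted p = 0.00110), and the insulin receptor Insr -0.59 (SE 0.14, edgeR adjusted p = 0.00132). All 6 genes of the list of IGF-binding protein proteases and their regulators were higher, with a median of 1.64. The proteases Pappa and Pappa2, which free IGFs from binding proteins, had 2.00 (SE 0.23, edgeR adjusted p = 7.41e-07) and 2.29 (SE 0.40, edgeR adjusted p = 9.86e-05), and Stc2, an inhibitor of these proteases, was at 12.02, 11.5 and 12.1 RPKM against 35.7, 44.3 and 33.4, a log2 fold change of 1.67 (SE 0.12, edgeR adjusted p = 3.62e-09). Of 8 binding proteins 4 were higher, led by Igfbp2, at 54.3, 51.1 and 45.8 RPKM against 138, 204 and 148 (1.70, SE 0.15, edgeR adjusted p = 4.30e-08). Igfals, the acid-labile subunit that stabilises circulating IGF complexes, was lower, at 17.4, 15.8 and 16.4 RPKM against 1.00, 0.699 and 0.947 (-4.22, SE 0.18, edgeR adjusted p = 7.07e-12). Of 5 adaptors 1 was higher (Grb10) and 4 lower, and of 3 mRNA-binding proteins that bind Igf2 transcripts Igf2bp1 (0.87) and Igf2bp2 (0.27) were higher and Igf2bp3 (-0.57) lower on the log2 scale.

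In the other comparisons the counts of the 29 genes are given with the share of all genes called the same way. C362A Mlkl had 9 higher (all genes 22.4 percent) and 9 lower (19.7 percent) than its controls, C362A Cflar Mlkl 13 higher (all genes 27.9 percent) and 8 lower (24.9 percent), and C362A Mlkl Casp1 1 higher (all genes 18.98 percent) and 15 lower (17.1 percent). All 6 genes of the list of proteases and their regulators were higher in C362A Mlkl (median 0.74) and in C362A Cflar Mlkl (median 1.34). Igfals had log2 fold changes of -1.28 (SE 0.29, edgeR adjusted p = 0.00221) and -4.04 (SE 0.34, edgeR adjusted p = 2.24e-07) in the 2 genotypes. Loss of Casp1 went with 7 higher (all genes 24.5 percent) and 14 lower (22.5 percent) in the D387A set and with 1 higher (all genes 17.9 percent) and 11 lower (15.5 percent) in the C362A set, the genes of that list counting for 5 and 6 of those lower. Igf1 was lower without Casp1 in both, at -0.68 (SE 0.086, edgeR adjusted p = 5.94e-06) and -0.99 (SE 0.16, edgeR adjusted p = 0.000367) on the log2 scale. Against the Mlkl controls, D387A Cflar Mlkl Casp1 had 1 higher (all genes 10.2 percent) and 5 lower (11.2 percent), its Ifnar1 knockout 4 higher (all genes 24.7 percent) and 13 lower (23.6 percent), and its Fadd knockout 0 higher (all genes 9.97 percent) and 1 lower (8.40 percent). Loss of Ifnar1 went with 4 higher (all genes 15.5 percent) and 12 lower (15.1 percent), loss of Fadd with 2 higher (all genes 10.5 percent) and 4 lower (7.35 percent), and loss of Cflar in C362A Mlkl with 6 higher (all genes 6.95 percent) and 2 lower (12.4 percent). In D387A alone and in the MEFs, edgeR called 0 of 29 and 0 of 25 genes tested.

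Other imprinted genes, a list of 56 of which 50 were tested in the D387A set and 51 in the C362A set, had calls in both directions. Whether the genes of this list are imprinted in intestine was not tested. In D387A Cflar Mlkl the list had 10 higher (all genes 29.9 percent) and 16 lower (29.5 percent), with a median log2 fold change of -0.04 against -0.0065 for all genes. The smallest adjusted p-values were those of Pon2 and Pon3, lactonases of the paraoxonase family (-1.51, SE 0.086, edgeR adjusted p = 1.88e-10, and -1.22, SE 0.096, edgeR adjusted p = 8.65e-09), Gatm, an enzyme of creatine synthesis (-3.09, SE 0.21, edgeR adjusted p = 1.29e-09), and Ascl2, a transcription factor of intestinal stem cells and trophoblast (2.29, SE 0.24, edgeR adjusted p = 2.48e-07). C362A Mlkl had 6 higher (all genes 22.4 percent) and 11 lower (19.7 percent), and C362A Cflar Mlkl 9 higher (all genes 27.9 percent) and 13 lower (24.9 percent), the lower ones including Gatm (-2.41, SE 0.26, edgeR adjusted p = 3.30e-06, and -3.04, SE 0.26, edgeR adjusted p = 3.36e-07) and Ddc, which makes dopamine and serotonin (-1.77, SE 0.16, edgeR adjusted p = 6.07e-07, and -1.36, SE 0.16, edgeR adjusted p = 5.35e-06). Loss of Casp1 went with 13 higher (all genes 24.5 percent) and 9 lower (22.5 percent) in the D387A set and with 5 higher (all genes 17.9 percent) and 9 lower (15.5 percent) in the C362A set. Against the Mlkl controls there were 4 higher (all genes 10.2 percent) and 7 lower (11.2 percent) in D387A Cflar Mlkl Casp1, 8 higher (all genes 24.7 percent) and 13 lower (23.6 percent) in its Ifnar1 knockout, 2 higher (all genes 9.97 percent) and 6 lower (8.40 percent) in its Fadd knockout and 3 higher (all genes 18.98 percent) and 14 lower (17.1 percent) in C362A Mlkl Casp1. For loss of Ifnar1 the counts were 5 higher (all genes 15.5 percent) and 11 lower (15.1 percent), for loss of Fadd 4 higher (all genes 10.5 percent) and 3 lower (7.35 percent), and for loss of Cflar in C362A Mlkl 4 higher (all genes 6.95 percent) and 4 lower (12.4 percent). D387A alone and the MEFs had 0 by edgeR.

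Counts of 4 smaller lists are to be read beside the 29.9 percent of all genes called higher and 29.5 percent lower in D387A Cflar Mlkl, 22.4 and 19.7 in C362A Mlkl, 27.9 and 24.9 in C362A Cflar Mlkl, and 24.5 and 22.5 for loss of Casp1 in the D387A set. Factors that maintain imprints, such as DNA methyltransferases and zinc finger proteins, had 5 higher and 0 lower of 9 tested in D387A Cflar Mlkl, led by Uhrf1, which brings Dnmt1 to newly replicated DNA (1.18, SE 0.094, edgeR adjusted p = 1.01e-08). They had 1 higher and 1 lower in C362A Mlkl and 1 higher and 1 lower in C362A Cflar Mlkl. Of the 6 cyclin-dependent kinase inhibitors beside Cdkn1c, 2 higher and 2 lower were called in D387A Cflar Mlkl, and Cdkn1a, the p21 gene, moved the other way from Cdkn1c (0.59, SE 0.16, edgeR adjusted p = 0.00373). In C362A Mlkl they had 1 higher and 0 lower, and in C362A Cflar Mlkl 2 higher and 1 lower. Of 11 Notch pathway genes beside Dlk1, 5 higher and 2 lower were called in D387A Cflar Mlkl, 3 higher and 1 lower in C362A Mlkl and 4 higher and 1 lower in C362A Cflar Mlkl, with the Notch ligand Jag2 at 0.93 (SE 0.089, edgeR adjusted p = 1.12e-07) in the first. Of 6 genes related to Plagl1 or linked with fetal growth through Lin28 and Hmga proteins, 4 higher and 1 lower were called in D387A Cflar Mlkl, 2 higher and 1 lower in C362A Mlkl and 4 higher and 1 lower in C362A Cflar Mlkl. Hmga1, a chromatin protein of dividing cells, had 1.08 (SE 0.078, edgeR adjusted p = 2.98e-09) and Lin28b, an RNA-binding protein of fetal tissues, 1.70 (SE 0.28, edgeR adjusted p = 5.69e-05) in the first. For loss of Casp1 in the D387A set the counts of the 4 lists were 1 higher and 5 lower, 1 higher and 1 lower, 3 higher and 4 lower and 2 higher and 4 lower, in that order. In D387A alone and in the MEFs none of the 4 lists had a gene called by edgeR. Proliferation markers summed to 577, 587 and 517 CPM in the D387A set controls and 1094, 1247 and 1056 in D387A Cflar Mlkl. Their part in the results of these 4 lists was not tested.

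Markers of cell types differed between the same genotypes. The 8 enterocyte genes, led by Apoa4, summed to 41899, 42683 and 37496 CPM in the D387A set controls and to 3296, 1884 and 2494 in D387A Cflar Mlkl. They summed to 19407, 24438 and 26508 in D387A Cflar Mlkl Casp1, 21780.0, 29200.1 and 31084 in its Ifnar1 knockout and 42399.6, 42991 and 39463 in its Fadd knockout. In the C362A set the sums were 32721, 44749 and 51025 in the controls, 16865, 14698 and 18476 in C362A Mlkl, 45946, 56653 and 55105 in C362A Mlkl Casp1 and 2797, 3393 and 7855 in C362A Cflar Mlkl. The 6 liver genes, led by Ttr, summed to 298, 679.7 and 244 CPM in the D387A set controls, 19.99, 72.6 and 13.6 in D387A Cflar Mlkl, 136, 106 and 117 in D387A Cflar Mlkl Casp1, 51.7, 57.95 and 54.4 in its Ifnar1 knockout and 295, 249 and 226 in its Fadd knockout. In the C362A set the liver genes summed to 264, 304 and 375 CPM in the controls, 217, 137 and 200.1 in C362A Mlkl, 297, 445 and 459.8 in C362A Mlkl Casp1 and 13.8, 167 and 54.9 in C362A Cflar Mlkl. The 6 proliferation genes, led by Mki67 or Top2a, summed to 577, 587 and 517 CPM in the controls and 1094, 1247 and 1056 in D387A Cflar Mlkl. No marker of these 3 lists was at 0 throughout a group of intestines, and their part in the results of the members was not tested.

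Other marker lists, apart from skeletal muscle, are given as sums in CPM for the D387A set controls, D387A Cflar Mlkl, D387A Cflar Mlkl Casp1, its Ifnar1 knockout and its Fadd knockout, in that order. Smooth muscle genes, led by Acta2, Actg2 or Tagln, summed to 5238, 5514 and 5692, then 7229.7, 9027 and 8270.1, then 4898, 4685 and 5070.2, then 4903, 4640.4 and 4333, then 4925, 4701 and 4436. Fibroblast genes, led by Col3a1 or Col1a1, summed to 3819, 4162 and 4197, then 5173, 4986 and 5107, then 4608, 4080.1 and 3954, then 3362, 3321 and 3205, then 3224, 3573 and 3687. Endothelial genes, led by Pecam1, summed to 357, 381 and 343, then 471, 398 and 492, then 461, 415 and 446, then 359, 324 and 361, then 330.2, 351 and 374. Enteric neuron and glia genes, led by Ret or Uchl1, summed to 249, 244 and 265, then 201, 189 and 199.6, then 253, 242 and 214, then 178, 171 and 176, then 219, 209.9 and 198. Cajal cell genes, led by Kit or Ano1, summed to 71.1, 76.7 and 90.2, then 77.4, 74.8 and 77.98, then 89.97, 82.5 and 87.5, then 75.8, 68.5 and 63.3, then 66.7, 75.5 and 68.1. General epithelial genes, led by Epcam, summed to 2813, 2639.8 and 2517, then 3076, 2984 and 2902, then 2320.4, 2553 and 3319, then 3679, 3773 and 3995, then 3516, 3424 and 3136. Macrophage genes, led by Csf1r, C1qa or C1qb, summed to 404, 396 and 369.5, then 286, 277 and 365, then 340.3, 333 and 586, then 492, 519.7 and 563, then 487, 462 and 468. Erythroid genes, led by Hbb-bt, summed to 245, 184 and 323, then 138, 205 and 274, then 1467, 752 and 257, then 86.4, 142 and 167, then 204, 286 and 104. Acinar genes, led by Cela1 or Ctrb1, summed to 37.4, 37.5 and 70.4, then 8.55, 6.30 and 18.2, then 9.05, 8.45 and 9.92, then 46.8, 105 and 70.9, then 12.97, 15.3 and 62.6. Proliferation genes summed to 697, 669 and 709, then 854, 666 and 657, then 574, 623 and 615, in the last 3 of these genotypes. Replicate 3 of D387A Cflar Mlkl Casp1, low in H19 and Igf2, was the lowest of its genotype for the erythroid and the highest for the macrophage list. In these controls the skeletal muscle gene Myog and the acinar gene Pnlip were at 0, as was Myog in D387A Cflar Mlkl and C362A Cflar Mlkl, and Pnlip in the Fadd knockout, the C362A set controls and C362A Mlkl Casp1.

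In the C362A set the order is controls, C362A Mlkl, C362A Mlkl Casp1 and C362A Cflar Mlkl. Smooth muscle genes summed to 4342, 3778 and 2664, then 4604, 3486 and 3309, then 1655, 2566 and 3361, then 6204, 7253 and 6200.1. Fibroblast genes summed to 3701, 2336 and 1897, then 2683, 2056 and 2439, then 1228, 1611 and 1950.0, then 1994, 2569.6 and 2900.3. Endothelial genes summed to 379, 304 and 254, then 341, 251 and 313, then 199, 262 and 270.5, then 262, 293 and 382. Neuron and glia genes summed to 228, 193 and 159.8, then 174, 126 and 138, then 97.8, 117 and 138, then 104, 129 and 162. Cajal cell genes summed to 78.5, 72.5 and 71.8, then 84.8, 79.5 and 74.97, then 46.3, 55.9 and 58.2, then 59.9, 87.3 and 78.5. General epithelial genes summed to 2596, 2722 and 2409, then 3899, 3403 and 3983, then 4142, 4255 and 3901, then 2873, 2267 and 3207. Macrophage genes summed to 342, 395 and 409, then 545, 498 and 558, then 519, 565 and 535, then 340.4, 405 and 360.1. Erythroid genes summed to 202, 149 and 398, then 105, 99.2 and 149, then 199.5, 119.7 and 145, then 137, 225 and 167. Acinar genes summed to 14.3, 29.1 and 40.5, then 19.8, 10.9 and 28.6, then 14.3, 13.7 and 12.5, then 41.4, 153 and 16.7. Proliferation genes summed to 567, 443 and 374, then 664, 646 and 661, then 496, 514 and 545, then 774, 779 and 922. In MEFs the enterocyte genes summed to 55.9, 43.95 and 34.4 CPM in controls and 49.4, 49.95 and 41.9 in D387A Cflar Mlkl, with 5 of 8 at 0.

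Calls in the marker lists are named where a list had at least 2 in a direction. D387A Cflar Mlkl against its controls had 6 of 8 smooth muscle, 5 of 8 fibroblast, 3 of 6 endothelial, 3 of 6 general epithelial, 5 of 6 macrophage, 2 of 5 skeletal muscle and 6 of 6 proliferation genes higher, beside 29.9 percent of all genes, and 2 of 8 neuron and glia, 7 of 8 enterocyte, 4 of 6 liver, 3 of 5 skeletal muscle and 2 of 4 acinar genes lower, beside 29.5 percent. The lower macrophage gene was Csf1r (-1.83 on the log2 scale). Loss of Casp1 in that genotype had 2 of 8 neuron and glia, 7 of 8 enterocyte, 5 of 5 erythroid, 3 of 6 liver and 2 of 5 skeletal muscle genes higher, beside 24.5 percent of all genes, and 8 of 8 smooth muscle, 3 of 8 fibroblast, 2 of 6 general epithelial, 2 of 5 skeletal muscle and 6 of 6 proliferation genes lower, beside 22.5 percent. Loss of Ifnar1 had 5 of 6 general epithelial, 2 of 8 enterocyte, 4 of 4 acinar and 2 of 6 proliferation genes higher, beside 15.5 percent of all genes, and 3 of 8 fibroblast, 3 of 6 endothelial, 6 of 8 neuron and glia, 2 of 3 Cajal cell, 2 of 8 enterocyte, 5 of 5 erythroid and 3 of 6 liver genes lower, beside 15.1 percent. Loss of Fadd had 5 of 8 enterocyte and 2 of 4 acinar genes higher, beside 10.5 percent of all genes, and 3 of 6 endothelial, 3 of 6 macrophage and 4 of 5 erythroid genes lower, beside 7.35 percent. Against the Mlkl controls, D387A Cflar Mlkl Casp1 had 2 of 6 endothelial, 4 of 6 macrophage, 3 of 5 erythroid and 2 of 6 proliferation genes higher, beside 10.2 percent of all genes, and 2 of 8 neuron and glia, 5 of 8 enterocyte, 5 of 6 liver and 2 of 4 acinar genes lower, beside 11.2 percent. Its Ifnar1 knockout had 5 of 6 general epithelial, 2 of 8 enterocyte, 5 of 6 macrophage and 3 of 6 proliferation genes higher, beside 24.7 percent of all genes, and 3 of 8 smooth muscle, 3 of 8 fibroblast, 6 of 8 neuron and glia, 3 of 8 enterocyte, 3 of 5 erythroid, 6 of 6 liver and 2 of 5 skeletal muscle genes lower, beside 23.6 percent. Its Fadd knockout had 3 of 6 general epithelial and 3 of 8 enterocyte genes higher, beside 9.97 percent of all genes, and 2 of 8 neuron and glia genes lower, beside 8.40 percent. In the C362A set, C362A Mlkl against the controls had 3 of 6 general epithelial, 5 of 6 macrophage and 4 of 6 proliferation genes higher, beside 22.4 percent of all genes, and 2 of 8 neuron and glia, 5 of 8 enterocyte, 3 of 5 erythroid and 3 of 6 liver genes lower, beside 19.7 percent. C362A Mlkl Casp1 had 2 of 6 general epithelial, 3 of 6 macrophage and 3 of 6 proliferation genes higher, beside 18.98 percent of all genes, and 3 of 8 smooth muscle, 3 of 8 fibroblast, 7 of 8 neuron and glia, 2 of 3 Cajal cell, 3 of 5 erythroid and 2 of 6 liver genes lower, beside 17.1 percent. C362A Cflar Mlkl had 4 of 8 smooth muscle, 2 of 6 general epithelial, 5 of 6 macrophage, 2 of 5 skeletal muscle, 3 of 4 acinar and 5 of 6 proliferation genes higher, beside 27.9 percent of all genes, and 3 of 8 neuron and glia, 2 of 3 Cajal cell, 6 of 8 enterocyte, 3 of 6 liver and 2 of 5 skeletal muscle genes lower, beside 24.9 percent. Loss of Casp1 in C362A Mlkl had 6 of 8 enterocyte genes higher, beside 17.9 percent of all genes, and 3 of 8 smooth muscle, 3 of 8 fibroblast, 2 of 8 neuron and glia, 3 of 3 Cajal cell, 5 of 6 macrophage and 2 of 6 proliferation genes lower, beside 15.5 percent. Loss of Cflar had 3 of 8 smooth muscle, 2 of 6 liver, 2 of 5 skeletal muscle and 2 of 6 proliferation genes higher, beside 6.95 percent of all genes, and 7 of 8 enterocyte and 2 of 6 macrophage genes lower, beside 12.4 percent. In D387A alone and in the MEFs 0 were called. The part of these lists in the results of the members was not tested.

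For each member, the gene most like it was found as the smallest RMS difference of log2 CPM, centred within each set, over the 30 intestine libraries and 18195 genes. H19 was most like another member, Cdkn1c, at 0.355, while Igf2 lay 0.542 from H19 and nearest to Ghr (0.232), the growth hormone receptor. Cdkn1c was nearest to Gm44732 (0.231), a gene on its opposite strand, and then to Slc7a8 (0.316). Igf2r was nearest to Lclat1 (0.0864), Plagl1 to Etv1 (0.208), Grb10 to Kdm5b (0.111), Dlk1 to Adamts2 (0.172), Meg3 to Mapk8ip3 (0.170), Peg3 to Pds5b (0.107) and Mest to Ldb2 (0.1252). For Grb10, Amotl1 (0.115) and Igf1r (0.123) came next, at ranks 2 and 3. Among pairs of members the closest were Grb10 and Mest (0.203) and the furthest Dlk1 and Cdkn1c (1.38). Dlk1 and Meg3, of the same domain, were 0.545 apart. Such a distance depends on how much each gene varies, and the RMS of the gene itself was 0.317 for Grb10, 0.243 for Mest, 0.313 for Meg3, 0.438 for Dlk1, 1.20 for Cdkn1c and 1.22 for H19. These distances share their libraries and are descriptions.

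Some members overlap other genes, and the sources used here do not state whether the counting used strand, so such reads are uncertain. Exons of Cdkn1c overlap 625 bases of the antisense gene Gm44732, whose reads came to 2.02 percent of those of Cdkn1c. Exons of Mest overlap 912 bases of the antisense Copg2, itself imprinted, with 19.3 percent. Igf2 overlaps 98 bases of Igf2os (4.34 percent) and Meg3 1228 bases of Gm26906 (0.0700 percent). Igf2 also shares 3596 exon bases, the most of any member, with Gm49394 on its own strand. That gene was not found by name among the genes counted, so it had no reads to analyse. Igf2r shares no exon bases with Airn, the noncoding RNA that starts within it.

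H19 and Igf2, both lower than in the controls in D387A Cflar Mlkl, C362A Mlkl and C362A Cflar Mlkl, each host a microRNA, and the mature sequences of these are given. Mest (miR-335) and Meg3 (miR-770 and miR-1906) host others, which are not shown. The microRNAs were not measured by these libraries, and the hairpin gene Mir675 had 0 reads in every library. The arms of miR-675 lie in an exon of H19 (chr7:142577112-142577133 and chr7:142577078-142577099, minus strand) and those of miR-483 in Igf2, in an intron or across an exon edge (chr7:142654968-142654989 and chr7:142654932-142654952, minus strand). Sequences are from RefSeq on build GRCm38.p6, 5′ to 3′, with the seed (bases 2 to 8) in capitals, and the 4 seeds differ.
mmu-miR-675-5p: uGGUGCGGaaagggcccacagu
mmu-miR-675-3p: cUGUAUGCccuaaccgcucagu
mmu-miR-483-5p: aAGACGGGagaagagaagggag
mmu-miR-483-3p: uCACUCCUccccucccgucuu

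RefSeq promoters, 250 bases before to 50 after a transcript start on build GRCm38.p6, were found for 8 of the 10 members, some with several starts. They were searched on both strands for GGGGCCCC, a sequence that Plagl1 prefers, and for TATAAA, and CpG dinucleotides were counted. GGGGCCCC is in 1.08 percent of all 32851 promoters and, among those of the members, in that of Peg3 (chr7:6730370-6730669, minus strand). TATAAA is in 13.6 percent of all promoters and among members in the first Meg3 promoter. The median promoter holds 7 CpG, that of Igf2r (chr17:12769657-12769956, minus strand) 34, which 7.73 percent of promoters reach, and the first of Grb10 (chr11:12037371-12037670, minus strand) 45, which 1.93 percent reach. A match describes the letters of these windows, which are shown for Peg3, with the motif in capitals, and for Igf2r and Grb10, members that moved in opposite directions in D387A Cflar Mlkl, with each CG in capitals.
Peg3 promoter: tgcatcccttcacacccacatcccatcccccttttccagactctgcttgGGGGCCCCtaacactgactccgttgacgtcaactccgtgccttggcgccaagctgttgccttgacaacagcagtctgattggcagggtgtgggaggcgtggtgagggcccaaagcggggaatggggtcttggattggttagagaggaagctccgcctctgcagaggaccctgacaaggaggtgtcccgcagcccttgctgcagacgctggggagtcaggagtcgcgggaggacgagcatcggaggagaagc
Igf2r promoter: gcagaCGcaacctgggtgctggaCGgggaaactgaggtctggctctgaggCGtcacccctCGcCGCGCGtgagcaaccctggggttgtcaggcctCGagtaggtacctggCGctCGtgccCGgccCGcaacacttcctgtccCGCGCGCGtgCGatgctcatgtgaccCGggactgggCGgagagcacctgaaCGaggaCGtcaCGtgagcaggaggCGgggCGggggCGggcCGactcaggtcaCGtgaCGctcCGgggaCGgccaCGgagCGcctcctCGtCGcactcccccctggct
Grb10 promoter: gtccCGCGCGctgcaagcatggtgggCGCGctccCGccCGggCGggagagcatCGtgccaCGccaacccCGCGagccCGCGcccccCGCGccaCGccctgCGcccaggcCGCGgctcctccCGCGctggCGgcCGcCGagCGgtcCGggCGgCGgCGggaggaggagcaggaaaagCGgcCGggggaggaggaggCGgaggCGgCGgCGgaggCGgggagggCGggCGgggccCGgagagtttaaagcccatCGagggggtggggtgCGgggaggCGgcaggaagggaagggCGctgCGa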

How the data were processed

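RNA of 30 intestines and 6 MEF cultures was sequenced, per the labels in single-end reads of 50 bases with the same library kit. The paper names mRNA kits that differ from the labels and between its experiments, and the part of the kit in intestine and MEF levels was not tested. For each Ensembl gene the authors deposited a count of the uniquely mapped reads on its exons, after alignment by GSNAP to build GRCm38. The RPKM deposited by the authors divide those counts by exonic width and by a larger library total, of which 75.6 to 88.6 percent were reads on genes, and served for that share only. The RPKM of the report were computed here from the deposited counts and exonic widths, with TMM scaling within a set.

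Members and lists were chosen with earlier results of these data known. Genes were named by rule: all 10 members, any IGF pathway gene, and in each other list at most the 4 with the smallest adjusted p of a comparison, besides targeted genes, markers and nearest genes. The difference between the Casp1 effects, and the MEF pairs as a block in the contrast of intestine with MEFs, were added after values were seen.

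Each set was fitted by genotype alone in edgeR 4.0.16 (R 4.3.3; filterByExpr with a minimum count of 10 and total of 15, prior count 0.125), leaving 18360, 19408 and 15465 genes in the D387A, C362A and MEF sets, with biological coefficients of variation of 0.132, 0.162 and 0.132. Interaction contrasts joined the sets in a single fit. Alternatives were DESeq2 1.42.0, limma-voom (limma 3.58.1), relative log expression size factors, no filter, a mean of at least 50 reads, prior count 2, only the 2 genotypes compared, a block by replicate number, the study's thresholds and 84 refits with a library left out. MEF libraries of the same number were alike (3 pairs, correlation of residuals 0.181 to 0.310, median 0.270), and the blocked MEF fit also called 0 members. The fit was tested on simulated data of 18360 genes, where it called 175 of 200 changed genes and 8 unchanged ones. The simulation gave all genes the same spread, changed few genes and had no library that stands apart. It therefore checks that the code runs correctly and does not show how the fit performs on these data. Figures used Python 3.11.15 with matplotlib 3.10.9.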

Additional observations from a re-analysis of the deposited data

Results flagged for a closer look

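These values were flagged because an interaction test found the effects to differ between 2 groups. Between D387A Cflar Mlkl and C362A Mlkl, the effect differed by 1.19 for Dlk1 and 0.834 for Grb10 on the log2 scale. Between D387A Cflar Mlkl in intestine and in MEFs, it differed by -2.32 for H19, -1.45 for Igf2, -0.874 for Igf2r, -2.88 for Cdkn1c, -0.571 for Plagl1, 1.13 for Dlk1, 0.612 for Grb10 and 0.472 for Peg3. Between loss of Casp1 in D387A Cflar Mlkl and in C362A Mlkl, it differed by 2.25 for H19, 1.04 for Igf2, 1.25 for Meg3, 0.607 for Peg3, 1.44 for Cdkn1c and 1.49 for Plagl1. The cause of these differences was not tested.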

How the results depend on the processing

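Counts of members passing the test were compared across settings. With the study's thresholds, which also ask for a log2 fold change above 1 or below -1, they were, with the share of all genes passing in brackets, 3 of 10 in D387A Cflar Mlkl against Mlkl (22.2 percent), 1 in D387A Cflar Mlkl Casp1 (4.34), 3 in its Ifnar1 knockout (12.4), 0 in its Fadd knockout (3.78) and 5 in C362A Mlkl Casp1 (10.5). For loss of Casp1, Ifnar1 and Fadd in the D387A set they were 3 (13.4), 3 (5.31) and 0 (3.44), and for loss of Casp1 or of Cflar in C362A Mlkl 0 (11.3) and 0 (6.06). The Fadd knockout against Mlkl (1 member) had 2 with no filter, 2 with a mean of at least 50 reads, 3 with DESeq2 and 4 with only the 2 genotypes compared, and loss of Fadd (3) had 0 with only the 2 genotypes compared, and 2 with relative log expression size factors and 2 with the replicate block, where Peg3 was lost at -0.29. Loss of Cflar in C362A Mlkl (1) had 5 with no filter, 3 with a mean of at least 50 reads, 3 with limma-voom, 3 with DESeq2, 0 with only the 2 genotypes compared and 0 with the replicate block. Those gained were H19 and Igf2, and with no filter also Dlk1 and Plagl1. Loss of Casp1 in C362A Mlkl (2) had 5 with only the 2 genotypes compared, gaining Igf2, Grb10 and Plagl1. With the replicate block C362A Mlkl Casp1 (8) had 7, where Dlk1 was lost at -0.73. The replicate block was run although intestines of the same number share only that number (lowest correlation of residuals -0.278 over 45 pairs in the D387A set and -0.438 over 18 pairs in the C362A set). Calls gained elsewhere were Mest for loss of Casp1 in the D387A set with DESeq2 (0.25), limma-voom (0.25) or a mean of at least 50 reads (0.27), Meg3 with no filter for loss of Ifnar1 (-0.44) and of Fadd (-0.43) and with DESeq2 for loss of Ifnar1 (-0.44), and Grb10 and Plagl1 in C362A Mlkl with DESeq2 (-0.46 and -0.69) or no filter (-0.46 and -0.68). With only the 2 genotypes compared, Plagl1 was gained in C362A Mlkl (-0.66) and Mest in the Ifnar1 knockout against Mlkl (-0.22). With single libraries left out, the counts ran over 0 to 0 in D387A alone, 7 to 8 in D387A Cflar Mlkl, 2 to 4 in D387A Cflar Mlkl Casp1, 4 to 6 in its Ifnar1 knockout, 1 to 2 in its Fadd knockout, 7 to 8, 7 to 8 and 1 to 5 for loss of Casp1, Ifnar1 and Fadd, 4 to 7 in C362A Mlkl, 6 to 8 in C362A Mlkl Casp1, 5 to 6 in C362A Cflar Mlkl, 1 to 2 and 0 to 5 for loss of Casp1 and Cflar in C362A Mlkl, and 0 to 0 in MEFs. For the interactions they ran over 2 to 3 for D387A Cflar Mlkl against C362A Mlkl, 0 to 3 against C362A Cflar Mlkl, 6 to 8 for intestine against MEFs and 5 to 6 for the Casp1 effects. Intestine against MEFs (8) had 9 with the MEF pairs as a block, an alternative added after values were seen, gaining Mest (0.49). No member changed direction among its calls. The share of all genes passing was taken for the main fits and the study's thresholds only, not for the other settings or refits. Members gained or lost in those are therefore not set against all genes. The data have 3 libraries a genotype, bulk tissue, counts that join both parental copies, a list chosen with these data known, and comparisons that share controls, and the cause of the differences was not tested.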
